A study of Mus musculus with 20 samples.

Results

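The 44 genes described here drive and carry out cell division. They were taken by symbol from the gene lists of 20 count tables, which name 24062 genes. Of the 44, 17 act in DNA replication or in entry into S phase and 27 act in mitosis or cytokinesis. All 44 were present in the tables, and all 44 were among the 15766 genes left after a filter on low counts.

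RNA from ribosome-depleted lung of Arg2+/+ (wild type) and Arg2-/- (knockout) mice was sequenced, all of strain C57/129 and 8 to 10 weeks of age at the start. Arg2 encodes the mitochondrial arginase. Each genotype was kept for 28 days either at 21% oxygen, called room air below, or at 10% oxygen, called hypoxia. The 20 libraries gave 4 samples in each of these 4 groups, after the A and B libraries of 1 number had been summed. The labels do not say whether the knockout removes the gene from all cells or which exons it deletes, and all tissue is whole lung, in which fewer dividing cells and less RNA per dividing cell cannot be told apart.

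Cells copy their DNA in S phase and divide it in M phase. Origins of replication are licensed when Cdt1 and Cdc6 load the MCM helicase, cyclin E with its kinase starts S phase, and E2F factors turn on the genes that supply nucleotides and the replication machinery. Later, cyclin A and cyclin B with Cdk1 drive the cell into mitosis, Foxm1 and B-Myb turn on the mitotic genes, kinetochores attach chromosomes to the spindle, and the anaphase-promoting complex ends mitosis by marking cyclin B and securin for destruction. In the adult lung most cells are quiescent, and lung vessels are known to thicken in chronic hypoxia.

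Reads counted in genes numbered between 9531270 and 63331530 per sample. The 10 lung markers, among them Sftpc and Scgb1a1, summed to between 33453 and 43853 CPM (a read count over its library size after TMM scaling), and none was at 0 in any group. Arg2 ranged from 7.30 to 11.8 CPM in wild type room air, from 6.33 to 11.7 in wild type hypoxia, from 4.58 to 7.78 in knockout room air and from 3.22 to 5.37 in knockout hypoxia, so knockout room air overlapped wild type. Arg2 was lower in the knockout by 1.13 ± 0.22 on the log2 scale in hypoxia (edgeR quasi-likelihood test, Benjamini-Hochberg adjusted p = 0.00191), while the room air difference of -0.70 ± 0.21 missed the threshold of 0.05 (adjusted p = 0.0842), and reads of exons outside the deleted part would still be counted. The labels name both sexes, while in all 16 samples Y-linked counts exceeded those of Xist. Knockout room air samples 3 and 4 stood apart with markers of developing T cells: Dntt, the terminal transferase of thymocytes, lay at 12.7 and 11.6 CPM against at most 0.594 CPM in the other 14 samples. Rag1, the recombinase of developing lymphocytes, lay at 46.2 and 35.3 CPM against at most 2.99 CPM elsewhere. The 10 thymocyte markers summed to 127 and 113 CPM in these samples and to between 20.0 and 44.5 CPM in the others, where Rag2 was at 0 in every wild type sample. The 6 thymic epithelium markers summed to 4.16 and 3.59 CPM in samples 3 and 4, against 2.13 to 3.90 CPM elsewhere. Among them Psmb11 lay at 0.244 and 0.114 CPM, against at most 0.0415 CPM elsewhere. Knockout room air 3 also held 1018 CPM of 8 summed heart muscle genes, against 175 to 597 CPM in the other samples. Knockout hypoxia 1 and 2 held 1802 and 143 CPM of 8 summed pancreas genes, against at most 20.6 CPM in any other sample. Wild type hypoxia 4 also stood apart: the 45S ribosomal RNA precursor Rn45s was at 249615 CPM there and at 4993 to 13061 CPM in the other 15 samples, and its counts differed from those of the rest of its group by a chi-square per degree of freedom of 135 to 143, against 3.68 to 22.1 for all other pairs of samples with different numbers in a group. Without the 10 genes that differed most in it, led by Rn45s and Lars2, that value was 7.58 to 11.7. For some comparisons, counts of calls are also given without the samples high in Dntt or without wild type hypoxia 4. The samples with pancreas genes were left out as a set only together with those high in Dntt.

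Promoter sequences of 8 genes are shown because the 2 classes differ in the motifs they hold and calls are counted by class below. The RefSeq table for GRCm38.p6 had an entry, from 250 bases before to 50 bases after the start, for 36 of the 44 genes, 14 of the replication class and 22 of the mitosis class. Entries were not found for Aurkb, Ccna2, Ccne2, Foxm1, Gins2, Kif20a, Mcm4 and Tpx2. In the GENCODE annotation of GRCm38, Ccne2 spans chr4:11191351-11204779, Foxm1 spans chr6:128362967-128376146 and Ccna2 spans chr3:36564865-36572150. Each stretch below runs 5′ to 3′ on the strand of the gene, from 150 bases before RefSeq's start to 10 after it, and capitals mark matches to the motifs. Tyms, Mcm2 and Cdt1 had the smallest p for hypoxia in the knockout among replication genes with an entry, and Prc1, Cenpf and Mki67 among mitosis genes. Mcm6 and Top2a were added after the search because they held the most E2F and the most CHR matches in this stretch. Against the GENCODE gene models, the stretches of Mcm6 and Mki67 lie wholly upstream of the gene, and that of Tyms reaches 2 bases into it.
Tyms, chr5:30073616-30073775, minus strand: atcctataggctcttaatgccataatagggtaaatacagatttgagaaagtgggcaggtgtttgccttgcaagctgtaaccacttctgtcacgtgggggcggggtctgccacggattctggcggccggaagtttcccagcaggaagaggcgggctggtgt
Mcm2, chr6:88898771-88898930, minus strand: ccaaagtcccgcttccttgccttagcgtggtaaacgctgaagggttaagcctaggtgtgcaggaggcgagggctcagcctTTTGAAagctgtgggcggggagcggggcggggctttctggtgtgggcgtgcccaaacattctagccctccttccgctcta
Cdt1, chr8:122567865-122568024, plus strand: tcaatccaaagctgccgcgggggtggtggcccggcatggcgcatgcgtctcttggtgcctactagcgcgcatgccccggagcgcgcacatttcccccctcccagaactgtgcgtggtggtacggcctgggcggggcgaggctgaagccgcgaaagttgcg
Prc1, chr7:80294301-80294460, plus strand: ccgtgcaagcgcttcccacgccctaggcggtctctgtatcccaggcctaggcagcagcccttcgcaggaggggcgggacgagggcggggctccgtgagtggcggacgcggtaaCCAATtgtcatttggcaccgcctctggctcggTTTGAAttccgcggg
Cenpf, chr1:189688077-189688236, minus strand: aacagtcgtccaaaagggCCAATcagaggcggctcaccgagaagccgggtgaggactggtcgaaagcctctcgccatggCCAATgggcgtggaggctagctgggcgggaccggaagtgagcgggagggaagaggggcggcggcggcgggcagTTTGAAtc
Mki67, chr7:135716370-135716529, minus strand: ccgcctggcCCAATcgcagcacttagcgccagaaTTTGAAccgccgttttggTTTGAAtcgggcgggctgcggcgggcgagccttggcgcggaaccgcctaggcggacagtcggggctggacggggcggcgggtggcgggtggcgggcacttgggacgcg
Mcm6, chr1:128359696-128359855, minus strand: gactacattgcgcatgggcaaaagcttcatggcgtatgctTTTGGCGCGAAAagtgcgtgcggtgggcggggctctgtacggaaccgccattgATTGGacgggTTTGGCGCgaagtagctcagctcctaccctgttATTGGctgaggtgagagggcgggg
Top2a, chr11:99024180-99024339, minus strand: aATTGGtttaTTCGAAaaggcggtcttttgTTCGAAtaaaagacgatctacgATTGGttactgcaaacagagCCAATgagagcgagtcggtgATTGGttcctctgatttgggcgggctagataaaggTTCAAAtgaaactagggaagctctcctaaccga
The motifs searched on both strands were the NF-Y box CCAAT, the core of the cell cycle homology region (CHR, TTTGAA or TTCGAA) and the E2F core in the forms TTTGGCGC, TTTCGCGC, TTTCCCGC and TTCCCGCC. The last pair of E2F forms can overlap each other, and matches of TTCGAA read the same on both strands. A CHR core lay in the 300-base window of 17 of the 22 mitosis promoters (77.3%) and of 2 of the 14 replication promoters (14.3%), against 19.2% of all 32851 promoters. All 17 of those mitosis promoters also held an NF-Y box, a pair that 7.53% of all promoters have. An NF-Y box was present in 86.4% of mitosis promoters, 57.1% of replication promoters and 37.4% of all promoters. An E2F core was present in 7 of the 14 replication promoters (50%), in 1 of the 22 mitosis promoters (4.55%, Cdk1) and in 3.49% of all promoters. Among the printed stretches, Tyms and Cdt1 hold no match, and Mcm2 holds 1 CHR core. Prc1, Cenpf and Mki67 each hold a CHR core downstream of an NF-Y box. The replication promoters had a median GC content of 57.5%, the mitosis promoters of 59.7% and all promoters of 52.7%. Matches are descriptions of sequence and not of binding.

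**Figure D1:**
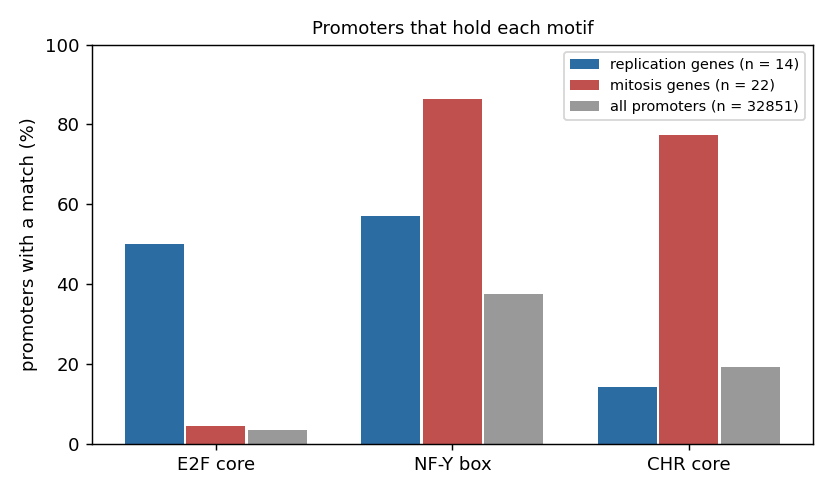
Share of promoters (%, 300 bases around the start) that hold an E2F core, an NF-Y box or a CHR core, for 14 replication genes, 22 mitosis genes and all 32851 promoters of the table. The CHR core is found in 77.3% of mitosis promoters and 14.3% of replication promoters, and the E2F core in 4.55% and 50%.

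In room air, wild type lung carried more RNA of replication genes than of mitosis genes when counts were divided by exon length. Replication genes had a median of 2.29 CPM per kilobase of exon, from 0.374 for Cdc6 to 9.51 for Mcm4, with Pcna, the sliding clamp of DNA polymerases, at 9.04. Mitosis genes had a median of 0.833 CPM per kilobase, from 0.102 for Ccnb1 to 5.23 for Mki67. The lowest level of a mitosis gene was that of a cyclin that drives mitosis, and the highest replication levels were those of a helicase subunit and the clamp.

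Summed over each class, replication genes varied less across the 16 samples than mitosis genes, although single replication genes such as Mcm6 and Ccne2 varied widely. The summed level of the 17 replication genes lay between 203 and 249 CPM in all 16 samples. The 27 mitosis genes summed to 196, 186, 208 and 193 CPM in wild type room air, 298, 263, 246 and 191 CPM in wild type hypoxia, 184, 171, 269.5 and 246 CPM in knockout room air, and 273, 458, 335 and 361 CPM in knockout hypoxia. Of these, wild type hypoxia 4 lay inside the range of wild type room air and was the sample high in Rn45s, the room air samples 3 and 4 of the knockout that carried thymocyte markers were the highest of the room air samples, and knockout hypoxia 2 was the highest of all. The ratio of the mitosis sum to the replication sum was 0.881, 0.793, 0.973 and 0.785 in wild type room air, 1.27, 1.06, 1.15 and 0.884 in wild type hypoxia, 0.901, 0.766, 1.21 and 1.08 in knockout room air, and 1.32, 1.85, 1.65 and 1.75 in knockout hypoxia. All 4 knockout hypoxia samples had a higher ratio than any of the other 12 samples. Knockout hypoxia 2 held the highest value of 21 of the 27 mitosis genes but of only 4 of the 17 replication genes.

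**Figure D2:**
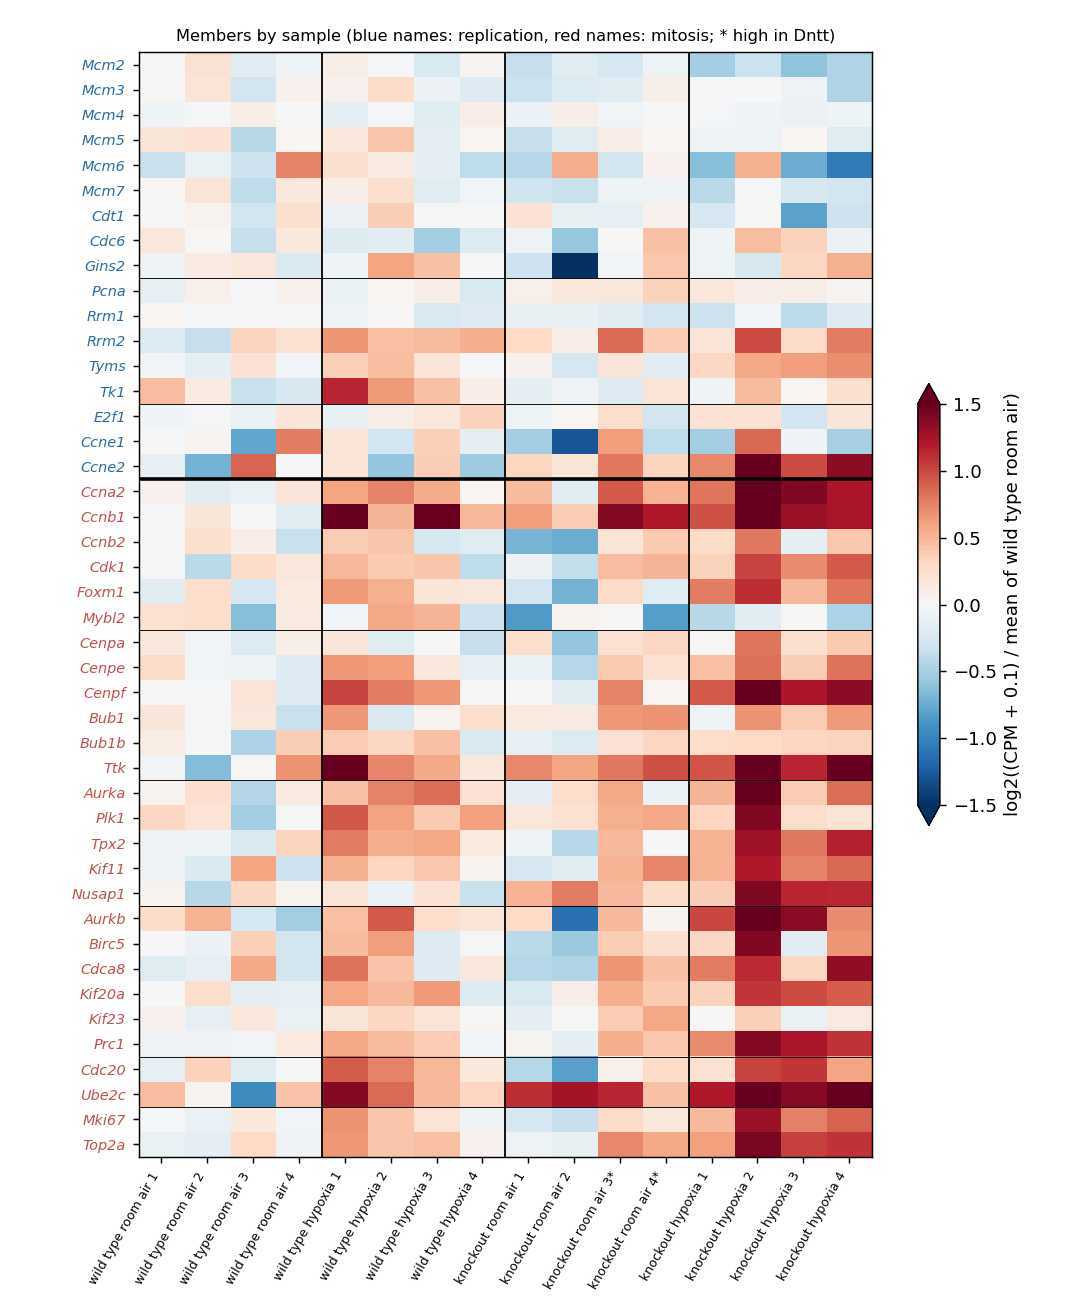
Level of each of the 44 genes (rows, by role) in each of the 16 samples (columns), as the log2 of CPM plus 0.1 over the mean of wild type room air, with colours capped at 1.5 either way. Replication genes (blue names, above the thick line) stay pale in most samples, mitosis genes (red names) are darkest red in knockout hypoxia 2, and the samples high in Dntt carry an asterisk.

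Hypoxia in the knockout raised 11 of the 44 genes and lowered 0, where 17% of all genes tested passed, 7.93% higher and 9.1% lower. Calls rest on an adjusted p (edgeR quasi-likelihood test, Benjamini-Hochberg over 15766 genes) under 0.05. Of the 27 mitosis genes 10 rose and 0 fell, with a median log2 fold change of 0.69 and 26 values above 0. The 10 were Cenpf, Prc1, Mki67, Foxm1, Tpx2, Ccna2, Cdc20, Top2a, Aurkb and Kif20a. Of the 17 replication genes only Tyms rose and 0 fell, with a median of 0.020 and 10 values above 0, beside a median of 0.0038 over all genes. Intervals of 1.96 standard errors either side lay below a 1.5-fold increase for 11 of the 17 replication genes and 3 of the 27 mitosis genes. They are narrower than the quasi-likelihood test implies, so wider ones could give lower counts.

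Hypoxia in the wild type gave no call among the 44 genes, where 4.98% of all genes tested passed. Mitosis genes had a median log2 fold change of 0.37 with 26 of 27 values above 0, and 6 of them had an unadjusted p under 0.05. Replication genes had a median of 0.0046 with 9 of 17 above 0 and 2 with an unadjusted p under 0.05, beside a median of -0.0071 over all genes. Ccnb1, cyclin B1, came nearest at 1.33 ± 0.40 (SE; adjusted p = 0.0655), with 0.428 ± 0.0527 CPM in room air and 1.11 ± 0.563 CPM in hypoxia (mean ± SD, n = 4) and no overlap between the groups. In wild type room air 3 a level of 3 counts was 0.323 CPM, so its value there rests on few reads. By DESeq2, Ccnb1 and Cenpf passed, and without wild type hypoxia 4 the same 2 genes passed by edgeR, where 5.77% of all genes passed. Whether the hypoxia effects differ between genotypes is tested further below.

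**Figure D3:**
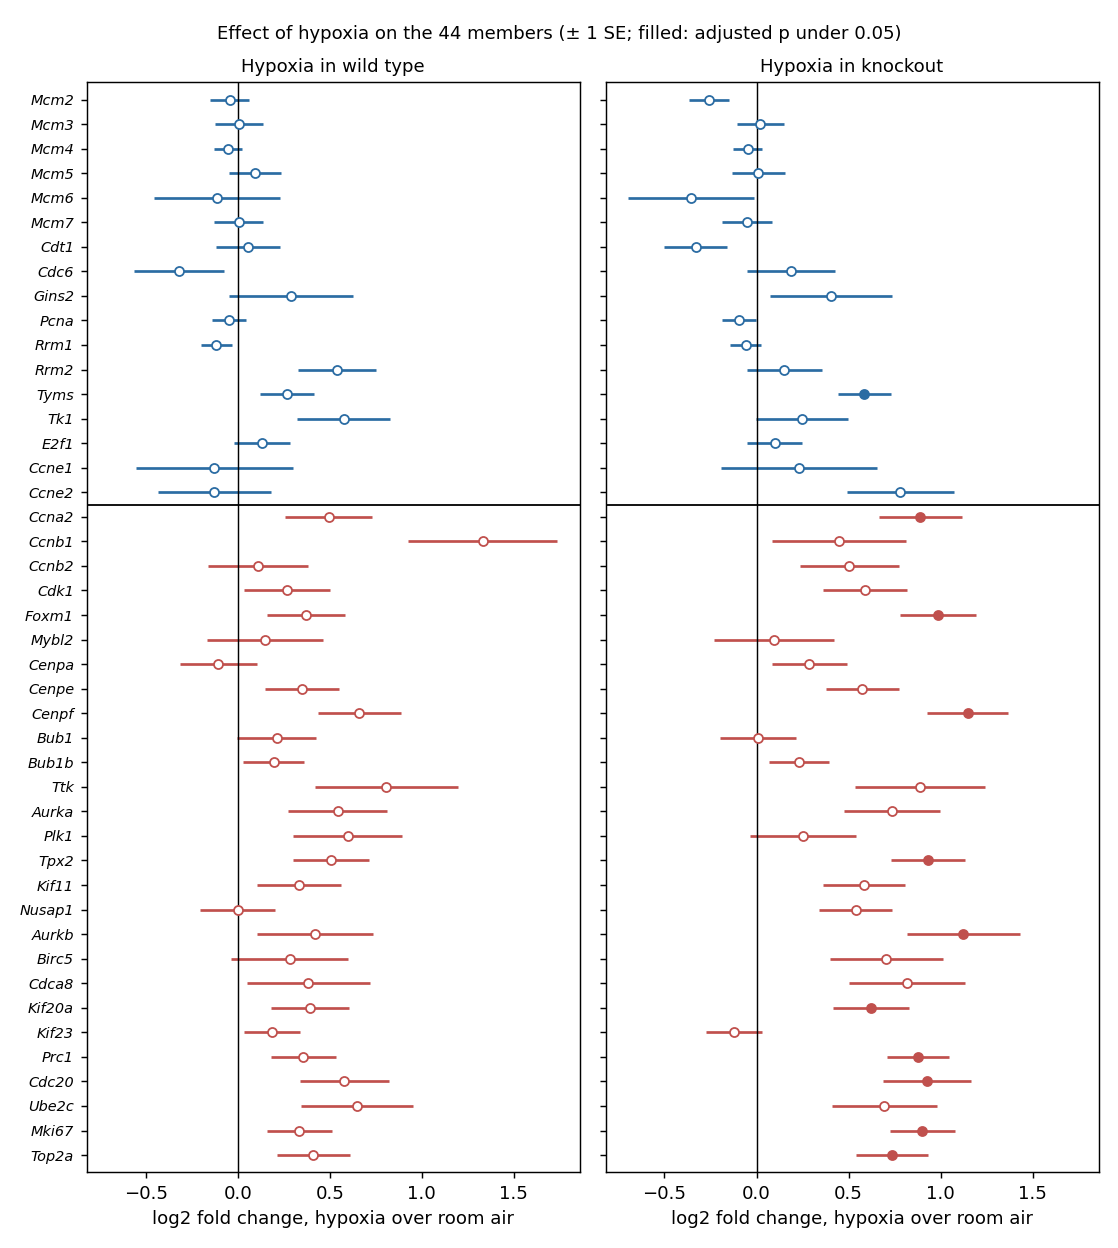
Log2 fold change of hypoxia over room air with 1 standard error for each of the 44 genes in wild type (left) and knockout (right), replication genes in blue above the line and mitosis genes in red below it. Filled points passed the test: 0 in wild type, and Tyms with 10 mitosis genes in the knockout.

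Mki67 and Top2a, which are used to count dividing cells, rose in knockout hypoxia, while Pcna, given further below, did not. Mki67 encodes Ki-67, which coats mitotic chromosomes, and lay at 52.0, 48.9, 58.7 and 50.8 CPM in wild type room air, 83.8, 70.0, 60.4 and 50.6 CPM in wild type hypoxia, 44, 41.1, 64.0 and 58.5 CPM in knockout room air, and 73.6, 129, 88.6 and 96.7 CPM in knockout hypoxia. The 4 knockout hypoxia samples were above all 4 knockout room air samples, and wild type hypoxia 4 sat with the room air samples. The log2 fold change of Mki67 was 0.90 ± 0.18 (SE; adjusted p = 0.00184) in the knockout and 0.33 ± 0.18 (adjusted p = 0.376) in the wild type. Top2a, the topoisomerase that untangles sister chromatids, lay at 24.9, 24.1, 33 and 25.7 CPM in wild type room air, 41.9, 35.7, 36.6 and 28.0 CPM in wild type hypoxia, 25.4, 24.6, 44.3 and 39.8 CPM in knockout room air, and 40.8, 71.3, 54.6 and 57.0 CPM in knockout hypoxia. Knockout hypoxia overlapped knockout room air, because sample 3 of room air, one of those high in Dntt, exceeded knockout hypoxia 1. Top2a rose by 0.73 ± 0.20 in the knockout (adjusted p = 0.015), beside a log2 fold change of 0.41 ± 0.20 in the wild type (adjusted p = 0.321). The knockout call of Top2a was lost without knockout hypoxia 2 (adjusted p = 0.0532), without knockout room air 1 (adjusted p = 0.052) and when only the compared groups were fitted (adjusted p = 0.0865).

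**Figure D4:**
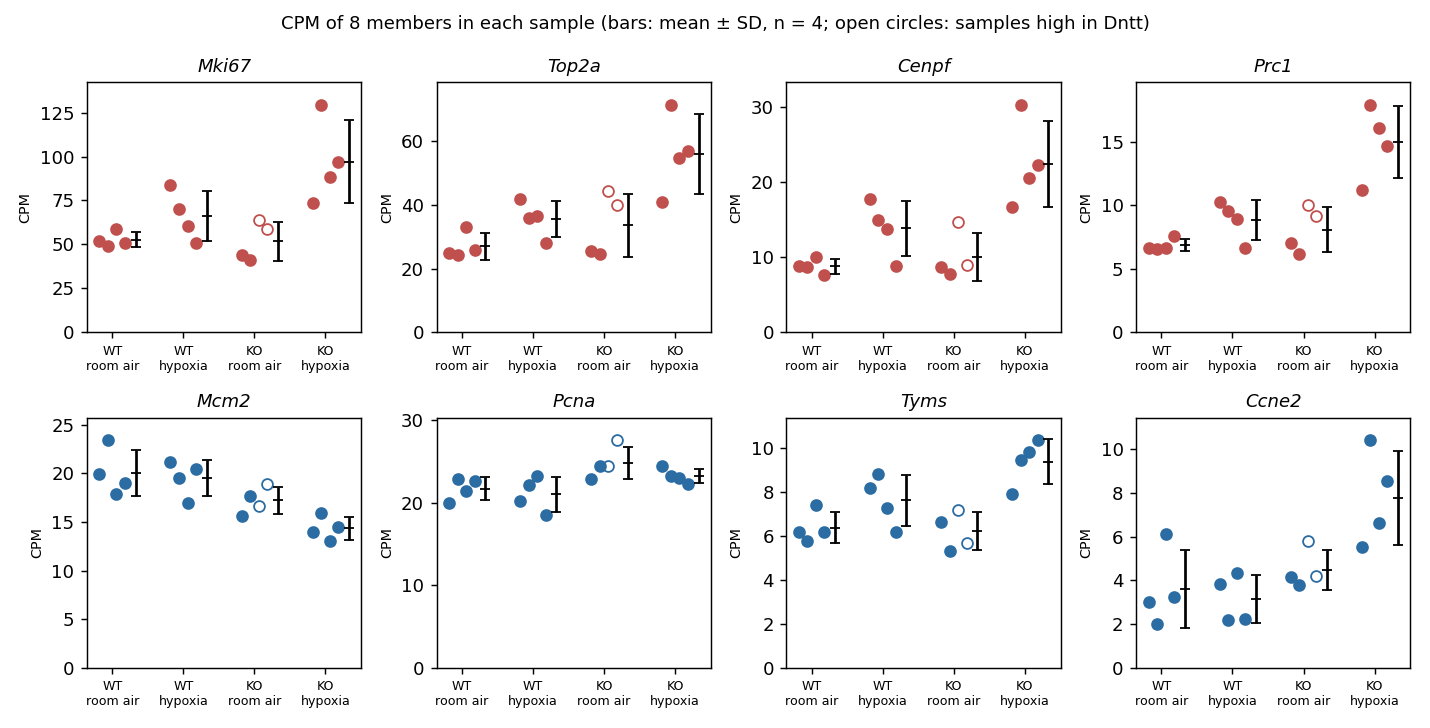
CPM of 8 genes in each sample (points) with the mean and SD of each group (bars, n = 4), mitosis genes in red and replication genes in blue; open circles are the knockout room air samples high in Dntt. Mki67, Cenpf, Prc1 and Tyms have no overlap between knockout room air and knockout hypoxia, while Pcna lies between 18.5 and 27.5 CPM in all samples.

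Among cyclins, the kinase and the transcription factors of mitosis, 2 of 6 (33.3%) rose in knockout hypoxia, where 17% of all genes were called, 7.93% higher. Ccna2, cyclin A2, which acts from S phase into mitosis, lay at 6.13, 5.27, 5.48 and 6.76 CPM in wild type room air, 8.92, 9.89, 8.72 and 6.03 CPM in wild type hypoxia, 8.18, 5.20, 11.2 and 8.51 CPM in knockout room air, and 10.3, 22.5, 15.5 and 13.9 CPM in knockout hypoxia. Its knockout groups overlapped at room air sample 3 and hypoxia sample 1, and Ccna2 rose by 0.89 ± 0.23 (adjusted p = 0.0101) against 0.49 ± 0.23 (adjusted p = 0.304) in the wild type. Foxm1, a transcription factor of mitotic genes, lay at 3.22, 4.34, 3.01 and 4.02 CPM in wild type room air, 5.68, 5.26, 4.11 and 4.07 CPM in wild type hypoxia, 2.94, 2.18, 4.42 and 3.17 CPM in knockout room air, and 6.19, 7.89, 5.08 and 6.36 CPM in knockout hypoxia. No knockout hypoxia sample overlapped knockout room air, and Foxm1 rose by 0.99 ± 0.21 (adjusted p = 0.00265). The wild type log2 fold change of Foxm1 was 0.37 ± 0.21 (adjusted p = 0.422). The other members, Ccnb1, Ccnb2, Cdk1 and Mybl2, which encodes B-Myb, did not pass in the knockout, with log2 values between 0.094 for Mybl2 and 0.59 for Cdk1.

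Of the centromere, kinetochore and checkpoint genes, 1 of 6 (16.7%) rose in knockout hypoxia, where 17% of all genes were called, 7.93% higher. Cenpf, a kinetochore protein that binds spindle microtubules, lay at 8.85, 8.65, 10.0 and 7.61 CPM in wild type room air, 17.7, 14.9, 13.8 and 8.86 CPM in wild type hypoxia, 8.71, 7.75, 14.7 and 8.93 CPM in knockout room air, and 16.7, 30.2, 20.4 and 22.3 CPM in knockout hypoxia. It had the largest log2 fold change of the 44 genes in this comparison, 1.15 ± 0.22 (adjusted p = 0.00147), with no overlap between the knockout groups. The wild type log2 fold change of Cenpf was 0.66 ± 0.23 (adjusted p = 0.116). Cenpe, the kinetochore motor that moves chromosomes to the spindle equator, lay at 7.83, 6.23, 6.13 and 5.6 CPM in wild type room air, 10.1, 9.95, 7.14 and 5.88 CPM in wild type hypoxia, 5.96, 4.72, 8.45 and 7.52 CPM in knockout room air, and 8.75, 11.4, 8.30 and 11.4 CPM in knockout hypoxia. The log2 fold change of Cenpe was 0.57 ± 0.20 in the knockout and missed the threshold (adjusted p = 0.0534). The centromeric histone Cenpa, the checkpoint kinases Bub1 and Ttk, and the checkpoint protein Bub1b also missed it, with log2 values between 0.0079 for Bub1 and 0.89 for Ttk.

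Of the genes of spindle assembly, 1 of 5 (20%) rose in knockout hypoxia, where 17% of all genes were called, 7.93% higher. Tpx2, which activates Aurora A at the spindle, lay at 5.43, 5.36, 4.84 and 7.10 CPM in wild type room air, 9.74, 8.24, 8.47 and 6.26 CPM in wild type hypoxia, 5.43, 4.14, 7.90 and 5.49 CPM in knockout room air, and 8.10, 13.7, 9.83 and 12.6 CPM in knockout hypoxia. Its lowest knockout hypoxia sample just exceeded its highest knockout room air sample, and Tpx2 rose by 0.93 ± 0.20 (adjusted p = 0.00322). The wild type log2 fold change of Tpx2 was 0.50 ± 0.21 (adjusted p = 0.207). Aurka, the Aurora A kinase of centrosomes, lay at 2.01, 2.32, 1.40 and 2.12 CPM in wild type room air, 2.65, 3.31, 3.53 and 2.25 CPM in wild type hypoxia, 1.73, 2.34, 2.91 and 1.79 CPM in knockout room air, and 2.80, 5.76, 2.54 and 3.54 CPM in knockout hypoxia. Knockout hypoxia 2 stood far above the rest for Aurka, and the groups overlapped (0.74 ± 0.26, adjusted p = 0.0615). Plk1, the polo kinase, Kif11, the motor that pushes spindle poles apart, and Nusap1, which stabilises spindle microtubules, did not pass in the knockout (0.25, 0.58 and 0.54).

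Of the chromosomal passenger and cytokinesis genes, 3 of 6 (50%) rose in knockout hypoxia, Prc1, Aurkb and Kif20a, where 17% of all genes were called, 7.93% higher. Prc1, which bundles microtubules of the central spindle, lay at 6.60, 6.57, 6.67 and 7.58 CPM in wild type room air, 10.2, 9.51, 8.93 and 6.64 CPM in wild type hypoxia, 7.06, 6.16, 9.99 and 9.12 CPM in knockout room air, and 11.2, 17.9, 16.1 and 14.6 CPM in knockout hypoxia. Every knockout hypoxia sample exceeded every other sample of the study for Prc1, and it rose by 0.88 ± 0.17 (adjusted p = 0.00132) against 0.36 ± 0.17 (adjusted p = 0.321) in the wild type. Aurkb, the Aurora B kinase of the passenger complex, lay at 2.38, 2.85, 1.61 and 1.33 CPM in wild type room air, 2.70, 3.81, 2.37 and 2.25 CPM in wild type hypoxia, 2.43, 0.849, 2.78 and 2.02 CPM in knockout room air, and 4.01, 5.89, 5.14 and 3.26 CPM in knockout hypoxia. No knockout hypoxia sample overlapped knockout room air, and Aurkb rose by 1.12 ± 0.31 (adjusted p = 0.0152). That call was lost without knockout hypoxia 2 (adjusted p = 0.0555) and without the samples high in Dntt or in pancreas genes together (adjusted p = 0.127). Kif20a, a kinesin of cytokinesis, rose by 0.62 ± 0.21 (adjusted p = 0.045) and lost the call in 11 of 26 alternatives, with adjusted p up to 0.152. Survivin (Birc5), Cdca8, also a passenger, and Kif23, a kinesin of the midbody, did not pass, and Kif23 had the only negative log2 value of the mitosis genes in this comparison (-0.12).

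Of the pair that serves the anaphase-promoting complex, Cdc20 rose in knockout hypoxia, 1 of 2 (50%), where 17% of all genes were called, 7.93% higher. Cdc20, its activator at anaphase, lay at 3.82, 5.33, 3.66 and 4.07 CPM in wild type room air, 7.90, 7.03, 5.94 and 4.65 CPM in wild type hypoxia, 3.07, 2.34, 4.41 and 5.07 CPM in knockout room air, and 4.90, 8.52, 8.87 and 6.36 CPM in knockout hypoxia. The knockout groups overlapped between room air sample 4 and hypoxia sample 1, and Cdc20 rose by 0.93 ± 0.24 (adjusted p = 0.0111). Ube2c, the ubiquitin-conjugating enzyme of the complex, lay at 2.16, 1.61, 0.753 and 2.12 CPM in wild type room air, 4.16, 2.86, 2.20 and 1.96 CPM in wild type hypoxia, 3.43, 3.82, 3.52 and 2.14 CPM in knockout room air, and 3.69, 7.31, 4.12 and 5.79 CPM in knockout hypoxia. Its knockout room air samples 1 to 3 were already above every wild type room air sample, and the hypoxia comparison in the knockout did not pass (0.69 ± 0.29, adjusted p = 0.107). In the wild type the log2 fold changes were 0.58 ± 0.24 (adjusted p = 0.224) for Cdc20 and, for Ube2c, 0.65 ± 0.31 (adjusted p = 0.298).

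Of the 9 licensing genes 0 were called in either hypoxia comparison, where 4.98% of all genes passed in the wild type and 17% in the knockout. At these shares 0 calls do not set them apart from other genes. Mcm2, a subunit of the helicase, lay at 19.9, 23.4, 17.8 and 19.0 CPM in wild type room air, 21.1, 19.5, 17 and 20.4 CPM in wild type hypoxia, 15.7, 17.6, 16.6 and 18.9 CPM in knockout room air, and 13.9, 15.9, 13 and 14.5 CPM in knockout hypoxia. Knockout hypoxia held its lowest levels, below every wild type sample, and the log2 fold change from knockout room air was -0.26 ± 0.11 (adjusted p = 0.106). Cdt1, the loader of the helicase, lay at 6.16, 6.39, 5.05 and 7.27 CPM in wild type room air, 5.79, 8.00, 6.06 and 6.17 CPM in wild type hypoxia, 7.20, 5.68, 5.67 and 6.45 CPM in knockout room air, and 5.17, 6.22, 3.5 and 4.94 CPM in knockout hypoxia, and its groups overlapped throughout. The log2 fold change of Cdt1 was -0.33 ± 0.17 in the knockout (95% interval -0.67 to 0.0078; adjusted p = 0.212) and 0.055 ± 0.17 in the wild type. Mcm3, Mcm4, Mcm5 and Mcm7 had log2 values between -0.052 and 0.020 in the knockout. Mcm4 had the narrowest interval of the 44 genes there, -0.20 to 0.10. Mcm6 varied most among the subunits (15.4 ± 8.62 CPM in knockout hypoxia, SD, n = 4), and Cdc6 and Gins2, which act in helicase loading and activation, had log2 values of 0.19 and 0.40.

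Of the clamp and the enzymes of nucleotide supply, Tyms alone rose in knockout hypoxia, 1 of 5 (20%), where 17% of all genes were called, 7.93% higher. Tyms, thymidylate synthase, which makes the thymidine nucleotide, lay at 6.18, 5.77, 7.42 and 6.17 CPM in wild type room air, 8.17, 8.83, 7.26 and 6.20 CPM in wild type hypoxia, 6.64, 5.31, 7.20 and 5.69 CPM in knockout room air, and 7.93, 9.44, 9.83 and 10.3 CPM in knockout hypoxia. All 4 knockout hypoxia samples exceeded all 4 knockout room air samples, and Tyms rose by 0.59 ± 0.15 (adjusted p = 0.00836), against 0.27 ± 0.15 (adjusted p = 0.398) in the wild type. Pcna lay at 19.9, 22.8, 21.4 and 22.6 CPM in wild type room air, 20.2, 22.2, 23.2 and 18.5 CPM in wild type hypoxia, 22.8, 24.4, 24.5 and 27.5 CPM in knockout room air, and 24.4, 23.2, 23.0 and 22.3 CPM in knockout hypoxia, and its groups overlapped in every comparison. Its log2 fold change was -0.095 ± 0.09 in the knockout (95% interval -0.27 to 0.084) and -0.047 ± 0.09 in the wild type (95% interval -0.23 to 0.13). Rrm1, the large subunit of ribonucleotide reductase, had a log2 value of -0.060 in the knockout, and Rrm2, its small subunit, one of 0.15. Wild type Rrm2 lay at 4.33 ± 0.998 CPM in room air and 6.19 ± 0.412 CPM in hypoxia (SD, n = 4) with no overlap between groups, and missed the threshold (0.54 ± 0.21, adjusted p = 0.178), and Tk1, thymidine kinase, had a value of 0.57 ± 0.25 (adjusted p = 0.247).

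Of the 3 genes of S phase entry 0 were called in either hypoxia comparison, where 4.98% of all genes passed in the wild type and 17% in the knockout. At these shares 0 calls do not set so few genes apart. Ccne2, cyclin E2, lay at 3.02, 1.98, 6.13 and 3.23 CPM in wild type room air, 3.84, 2.19, 4.32 and 2.25 CPM in wild type hypoxia, 4.16, 3.77, 5.81 and 4.20 CPM in knockout room air, and 5.53, 10.4, 6.61 and 8.53 CPM in knockout hypoxia. Knockout hypoxia 2 and 4 were the highest samples, and knockout hypoxia 1 lay below knockout room air 3, and the log2 fold change of 0.78 ± 0.29 missed the threshold (adjusted p = 0.0712). In 8 of 26 alternatives, among them DESeq2 and limma voom, it passed. E2f1, the transcription factor that opens S phase, lay at 6.86, 7.10, 6.77 and 8.15 CPM in wild type room air, 6.65, 7.71, 8.10 and 9.21 CPM in wild type hypoxia, 6.82, 7.33, 8.69 and 5.95 CPM in knockout room air, and 8.36, 8.39, 5.87 and 8.15 CPM in knockout hypoxia. Its groups overlapped throughout (0.098 ± 0.15 in the knockout, 95% interval -0.20 to 0.39). Ccne1, cyclin E1, had wide intervals, -0.60 to 1.06 in the knockout.

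Without knockout room air 3 and 4, the samples high in Dntt, hypoxia in the knockout raised 15 of 27 mitosis genes with a median log2 fold change of 1.01, and 1 of 17 replication genes, again Tyms, with a median of 0.14, where 9.73% of all genes passed. Ccnb2, Cdk1, Cenpe, Kif11 and Cdca8 were the mitosis genes gained. Only knockout room air 1 and 2 then remained as the reference. Their mitosis sums were 184 and 171 CPM, against 269.5 and 246 CPM in the samples left out. Leaving those out thus raises the mitosis fold changes by itself. Mki67 then changed by 1.19 ± 0.20 (adjusted p = 0.00158) and Top2a by 1.16 ± 0.19 (adjusted p = 0.00126). When knockout hypoxia 1 and 2, the samples with pancreas genes, were also left out, 11 mitosis genes and Tyms passed, with a median of 1.01 for the mitosis genes, where 6.81% of all genes passed. That fit set only knockout hypoxia 3 and 4 against knockout room air 1 and 2. Without knockout hypoxia 2 alone 7 mitosis genes passed, a count given without the share of all genes in that fit.

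In room air none of the 44 genes passed between genotypes, where 0.0761% of all genes passed, and 7 had an unadjusted p under 0.05. DESeq2 called 1 of them, Ube2c (0.87 ± 0.30; edgeR, adjusted p = 0.109). Mitosis genes had a median log2 fold change, knockout over wild type, of 0.19, with 21 of 27 above 0. Without the samples high in Dntt the median was -0.094, with 7 of 27 above 0. The direction of the mitosis median thus turned with those 2 samples. Replication genes had a median of -0.073, with 14 of 17 below 0 and all 9 licensing genes below 0, between -0.23 for Mcm2 and -0.0043 for Cdt1. Ccnb1 had no overlap between the genotypes (1.12 ± 0.40, adjusted p = 0.118).

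In hypoxia the knockout had higher levels of 8 of the 44 genes and a lower level of 1. These 20.5% lie below the 23% of all genes that passed, 11% higher and 12.1% lower. Of the mitosis genes 7 of 27 were higher and 0 lower (25.9%, near the 23% of all genes called, 11% higher). The higher ones were Nusap1 (1.06 ± 0.20, adjusted p = 0.00177), Ccna2 (0.89), Ube2c (0.92), Prc1 (0.76), Cenpf (0.70), Top2a (0.66) and Mki67 (0.55). The median over all 27 mitosis genes was 0.45, with 24 above 0, beside -0.010 over all genes. Nusap1 lay at 6.51 ± 1.16 CPM in wild type hypoxia and at 13.6 ± 3.73 CPM in knockout hypoxia, with no overlap. For Nusap1 the log2 fold change of hypoxia in the wild type was 0.00098 (95% interval -0.40 to 0.40), and that between genotypes in room air was 0.53 ± 0.20 (adjusted p = 0.142). Cdc20 and Foxm1, both called for hypoxia in the knockout, were not called between genotypes (0.16 and 0.42).

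The pair of replication genes called between genotypes in hypoxia (11.8% of 17, below the 23% of all genes) differed in direction. Ccne2 was higher in the knockout by 1.32 ± 0.30 (adjusted p = 0.00526), and all 4 of its knockout hypoxia samples exceeded all 4 wild type hypoxia samples. Mcm2 was lower by 0.44 ± 0.11 on the log2 scale (adjusted p = 0.00743), also with no overlap. The other helicase subunits had log2 values between -0.32 for Mcm6 and 3.8e-05 for Mcm4, and none passed. The replication median was -0.10, with 7 of 17 above 0. Without wild type hypoxia 4, knockout hypoxia 2 or knockout hypoxia 4, 3 mitosis genes passed in each case (Ccna2, Nusap1 and Prc1), 4 without wild type hypoxia 2, and both replication genes passed each time. Without wild type hypoxia 4, 17.7% of all genes passed, and the shares for the other single samples left out are not given. In the fit without the samples high in Dntt or in pancreas genes 6 mitosis genes and both replication genes passed, where 14.1% of all genes passed, and the call of Ube2c was lost (adjusted p = 0.104).

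The difference between the hypoxia effects of the 2 genotypes passed for 0 of the 44 genes, where 0.501% of all genes passed. At an unadjusted p under 0.05 there were 3: Ccne2 (0.91 ± 0.42, adjusted p = 0.341), Mki67 (0.57 ± 0.25, adjusted p = 0.314) and Prc1 (0.52 ± 0.24, adjusted p = 0.341). DESeq2 and limma voom also called 0. The median difference was 0.32 for mitosis genes, with 22 of 27 above 0, and -0.034 for replication genes. Without the samples high in Dntt the mitosis median was 0.69 and 11 mitosis genes had an unadjusted p under 0.05, but 0 passed. The larger number of mitosis genes called in the knockout is therefore not shown to be a larger response. The samples of all 4 groups enter more than 1 comparison, so the comparisons are not independent.

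Further genes of the same pathways were counted from lists of genes outside the 44. Of 66 other mitosis genes 21 rose (31.8%, against 17% of all genes called, 7.93% higher) and 0 fell with hypoxia in the knockout, with a median log2 fold change of 0.58. In the wild type 0 of the 66 passed, with a median of 0.26. The 3 with the smallest p in the knockout were Fam64a, which rose from 1.21 ± 0.557 to 4.20 ± 1.11 CPM (1.73 ± 0.33), the cytokinesis scaffold Anln (0.74 ± 0.16) and the condensin subunit Smc2 (0.59 ± 0.13). In hypoxia 17 of the 66 (25.8%, against 23% of all genes called, 11% higher) were higher in the knockout than in the wild type and 0 lower. They were led by the mitotic kinesin Kif18a (5.88 ± 0.907 to 13.9 ± 2.65 CPM, log2 1.24 ± 0.18), Smc2 (0.68 ± 0.13) and Kif20b (0.85 ± 0.17).

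Of 58 other replication genes 5 rose and 3 fell with hypoxia in the knockout, with a median of 0.038, and these 13.8% lie below the 17% of all genes. Timeless, which protects stalled forks, rose from 16 ± 1.08 to 36.2 ± 2.10 CPM in the knockout (1.18 ± 0.12, adjusted p = 2.65e-06) and from 16.7 ± 2.76 to 28.8 ± 4.82 CPM in the wild type (0.77 ± 0.12, adjusted p = 0.000618), where it was the only one of the 58 to pass. Atad2, a chromatin ATPase, rose in the knockout (0.74 ± 0.11, adjusted p = 0.000135), and Dck, deoxycytidine kinase, fell (-0.47 ± 0.11, adjusted p = 0.00506). The hypoxia effect on Atad2 differed between genotypes (0.85 ± 0.16, adjusted p = 0.0168). Between genotypes in hypoxia 4 were higher and 5 lower in the knockout (15.5%, below the 23% of all genes), among them Atad2 (0.76 ± 0.11) and the polymerase subunit Pole2 (0.70 ± 0.19) higher and Tipin, the partner of Timeless, lower (-0.60 ± 0.14).

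Of 26 G1 cyclins, kinases and brakes on the cycle, 2 rose and 4 fell with hypoxia in the knockout (23.1%, near the 17% of all genes), and 0 passed in the wild type. The antiproliferative gene Btg1 fell (-0.39 ± 0.08, adjusted p = 0.00229), as did the inhibitor of the cyclin D kinases Cdkn2b (-0.47 ± 0.11, adjusted p = 0.006), while Ccng2, cyclin G2, rose (0.46 ± 0.10, adjusted p = 0.00449). Between genotypes in hypoxia 1 was higher and 3 were lower in the knockout (15.4%, below the 23% of all genes). The lower ones were Trp53, which encodes p53, from 18.6 ± 1.80 to 10.8 ± 1.67 CPM (-0.77 ± 0.13, adjusted p = 0.000676), Cdk6 (-0.52 ± 0.10) and Cdkn2b (-0.50 ± 0.11).

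Markers of other cell types also differed among the groups. Of 10 tested erythroid precursor markers 4 (40%) were higher and 0 lower in knockout than in wild type hypoxia, where 23% of all genes were called, 11% higher. With hypoxia in the knockout 1 of these markers rose (10%, against 17% of all genes called, 7.93% higher). The 11 listed genes found in the tables summed to between 136 and 393 CPM in wild type room air, 141 and 387 in wild type hypoxia, 266 and 655 in knockout room air and 397 and 768 in knockout hypoxia. Knockout hypoxia 2, highest for the mitosis genes, was highest for that sum too, while knockout room air 1 and 2 had sums of 540.3 and 655 CPM beside the lowest mitosis sums of the study. Klf1, the factor that defines erythroid precursors, was at 0 in wild type room air, at 2.17 CPM in knockout hypoxia 2 and at most 0.282 CPM elsewhere. The part of such cells in the mitosis results was not tested.

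The summed granulocyte precursor markers were mostly Chil3, which alveolar macrophages express too. Chil3 lay between 471 and 660.0 CPM in wild type room air, 712 and 897 in wild type hypoxia, 561 and 672 in knockout room air and 879.6 and 1175 in knockout hypoxia. Of the 10 markers 5 were tested, of which 1 (20%) rose in each hypoxia comparison. Of all genes 4.98% were called in the wild type and 17% in the knockout. Ltf lay between 29.7 and 102 CPM in knockout room air and 20.8 and 53.3 CPM in knockout hypoxia, and Mpo, which defines such precursors, was at 1.59 CPM in knockout hypoxia 2 and at most 0.270 CPM elsewhere. That sample was also highest for Camp (6.43 CPM, at most 2.67 elsewhere) and Ngp (13.3 CPM, at most 5.84 elsewhere). It was not highest for Chil3, Ltf, Fcnb or Ms4a3.

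All 10 B cell markers and 10 of 11 of T and natural killer cells fell with hypoxia in the knockout, and 4 and 5 of them in the wild type. Of all genes 17% were called in the knockout, 9.1% lower, and 4.98% in the wild type. B cell markers summed to between 107 and 168 CPM in knockout room air and 39.0 and 65.4 CPM in knockout hypoxia. Markers of germinal centre B cells and plasma cells differed from this: of 8 tested, 3 were higher and 1 lower with hypoxia in the knockout (50%, against 17% of all genes). Between genotypes in hypoxia 3 were higher and 2 lower (62.5%, against 23% of all genes). Their sum lay between 626 and 675 CPM in knockout hypoxia and reached at most 574 CPM in the other 12 samples. The gene with the largest gain in that sum was Xbp1, which many secretory cells express, between 320.5 and 375 CPM in knockout hypoxia and 220.2 and 241 CPM in knockout room air. Mzb1, a plasma cell gene, lay between 2.59 and 3.61 CPM in knockout room air and 0.734 and 1.17 CPM in knockout hypoxia. Of 8 tested thymocyte markers 5 (62.5%, against 17% of all genes called, 9.1% lower) fell with hypoxia in the knockout, whose room air group holds both samples high in Dntt. The part of these cell types in the mitosis and replication levels was not tested.

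**Figure D5:**
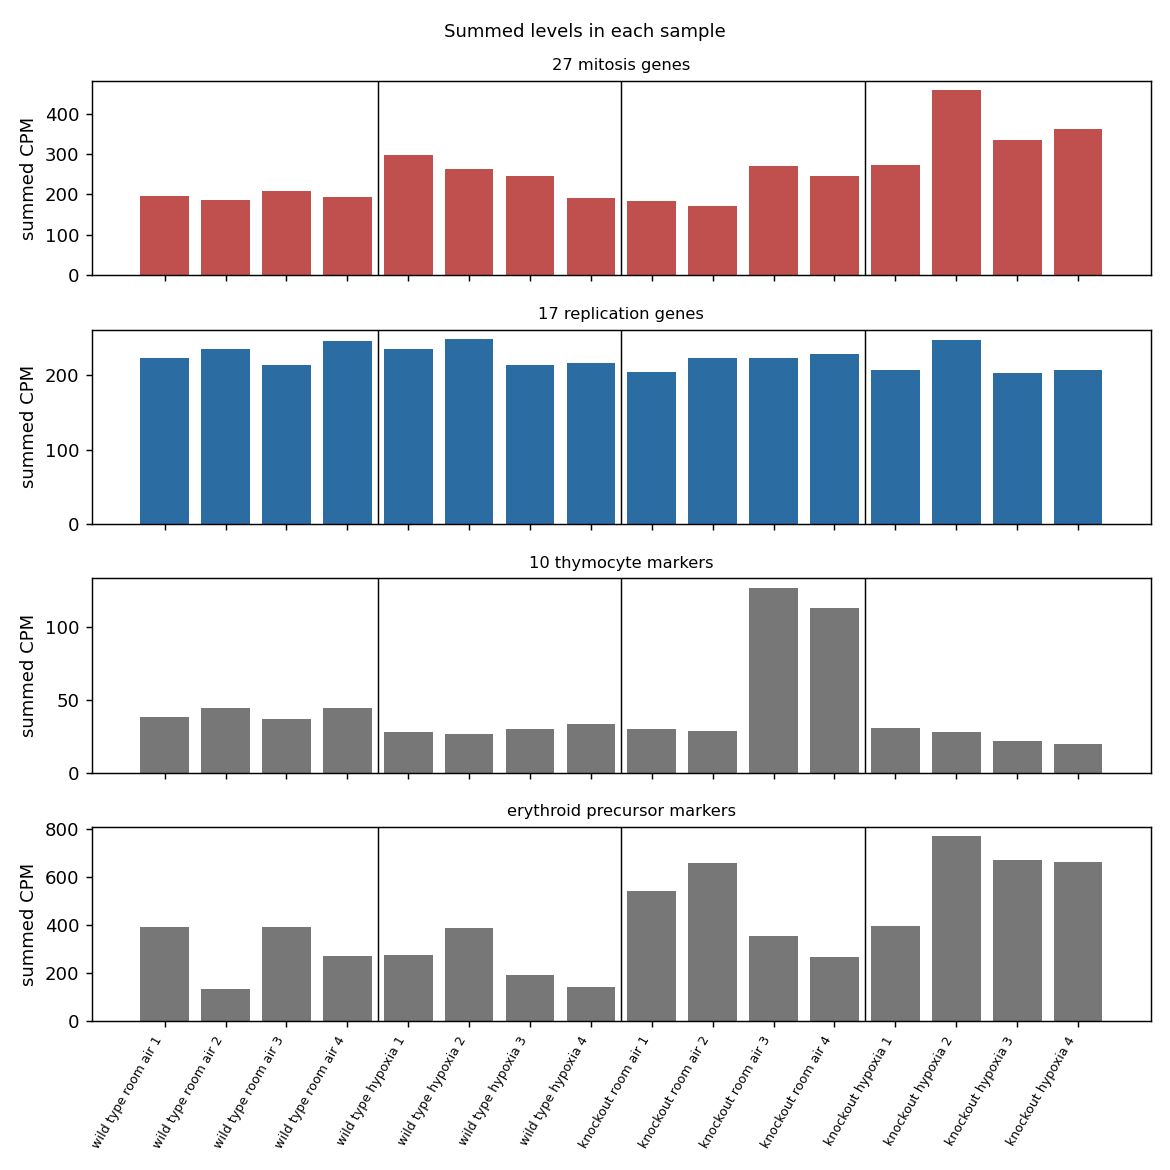
Summed CPM in each of the 16 samples of the 27 mitosis genes, the 17 replication genes, 10 thymocyte markers and the erythroid precursor markers. Mitosis sums are highest in knockout hypoxia 2, thymocyte markers stand out in knockout room air 3 and 4, and replication sums differ little between samples.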

How the data were processed

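Lung RNA was depleted of ribosomal RNA and prepared with a directional kit, per the labels' protocols. The authors deposited 20 tables of raw read counts per gene symbol. Per the submitters' processing notes Trim Galore, TopHat2 and HTSeq were used with the mouse build mm10; versions, annotation and strand setting: not given in the sources used here. Reads of overlapping or antisense genes cannot be told apart without that setting. The 5 lines of each table that name no gene held 74.4% to 93.9% of counted reads or alignments and were left out.

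Libraries A and B of one number differed less (chi-square per degree of freedom 1.53 to 2.03) than libraries of different numbers in the same group (3.68 to 143) and were summed to 16 samples. Samples are presumed to be separate animals; otherwise p-values measure only the spread between these samples, which may be technical.

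Genes with too few counts were removed (edgeR filterByExpr, minimum count 10, minimum total 15). edgeR 4.0.16 in R 4.3.3 fitted all 4 groups in one quasi-likelihood model with TMM scaling, and p-values of each of the 5 comparisons were adjusted by Benjamini-Hochberg over 15766 genes. The biological coefficient of variation was 15.8%. CPM use the scaled library sizes, ± is the standard error for log2 fold changes, and 95% intervals are the fold change ± 1.96 standard errors. Such intervals are narrower than the quasi-likelihood test implies. For hypoxia in the wild type those of 11 mitosis genes lay above 0, where 6 mitosis genes had an unadjusted p under 0.05. DESeq2 1.42.0 and limma 3.58.1 (voom) were alternatives, among 26 in all. The edgeR, voom and DESeq2 fits were tested on counts simulated with known changes in knockout hypoxia, for hypoxia against room air in the knockout only. The other alternatives were not tested in this way. A sample was high in Dntt above 1 CPM and 5 times the median.

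Members, classes, marker lists and pathway lists were chosen with earlier results of these data known. Values in every sample are given for Mki67, Top2a and the 2 genes of each role with the smallest p for hypoxia in the knockout. Members called in any comparison are named, as are the 3 called genes with the smallest p of each pathway list. Nusap1, Ccnb1 and Rrm2 are also described by group.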

Additional observations from a re-analysis of the deposited data

Results flagged for a closer look

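A sample far from the other 3 of its group was looked for in 184 groups of 4 values, and 11 were found, where chance alone flags about 1 in 20 groups. Mcm6, a helicase subunit, was at 32.7 CPM in wild type room air 4, with the others at 15.5 to 18.2. In knockout hypoxia 2 Mcm6 was at 28.2 CPM, with the others at 9.40 to 12.5. The summed replication genes were at 247 CPM in that same sample, with the others at 203 to 208, and the polo kinase Plk1 was at 3.09 CPM there, with the others at 1.30 to 1.42.

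The loader Cdc6 was low at 1.33 CPM in wild type hypoxia 3, with the others at 1.67 to 1.71. E2f1 was low at 5.87 CPM in knockout hypoxia 3, with the others at 8.15 to 8.39. The mitotic kinase Cdk1 was low at 3.60 CPM in wild type hypoxia 4, with the others at 6.23 to 6.71. The centromeric histone Cenpa was low at 2.97 CPM in knockout room air 2, with the others at 5.26 to 5.57. Cenpf was high at 14.7 CPM in knockout room air 3, a sample high in Dntt, with the others at 7.75 to 8.93. Cdca8 was high at 2.26 CPM in wild type room air 3, with the others at 1.22 to 1.36. Prc1 was high at 7.58 CPM in wild type room air 4, with the others at 6.57 to 6.67.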

How the results depend on the processing

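No called gene changed direction under the alternatives run, while the mitosis median between genotypes in room air, which has no test, turned from 0.19 to -0.094 without the samples high in Dntt. Counts of calls under the alternatives, here and above, lack the share of all genes unless one is printed beside them. For hypoxia in the knockout that share moved from 17% to 9.73% without the samples high in Dntt. A changed count is therefore not shown to be particular to these genes. In wild type hypoxia, where 0 genes passed, DESeq2 called 2, both mitosis genes. The A libraries alone gave 1 and the fit without the samples high in Dntt or in pancreas genes, chosen after seeing the data, gave 1. Leaving out each replicate gave 0 to 2 genes. In knockout hypoxia, where 11 passed, leaving out each replicate gave 8 to 15 genes, 7 to 13 of them mitosis genes and 1 to 2 replication genes. DESeq2, limma voom, the fit of only the groups compared, the GC correction and the fit with the replicate block each called 2 replication genes in place of 1, Tyms and Ccne2 in DESeq2. Between genotypes in room air DESeq2 called 1 gene in place of 0. Between genotypes in hypoxia, where 9 passed, leaving out each replicate gave 5 to 10 genes, of which 3 to 8 were mitosis genes and 2 replication genes, and the replicate block gave 8 genes. Replicate numbers did not pair the samples: deviations of same-numbered samples correlated at -0.36 to 0.45 (median 0.10, 24 pairs), against -0.54 to 0.52 for other pairs. The cause of these differences was not tested. Fitted without the samples high in Dntt, the mitosis median was 1.01 in knockout hypoxia and 0.69 for the difference. Depth limited the scarcest genes most, with 3 counts worth 0.0457 to 0.323 CPM per sample.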
